A study of Mus musculus with 8 samples.

Results

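The 10 genes described here, H19, Igf2, Igf2r, Peg3, Meg3, Dlk1, Cdkn1c, Grb10, Plagl1 and Mest, were taken by name as imprinted genes that act on growth. All 10 had at least 1 probe on the array, 18 probes in total, of 19023 genes tested and 56605 probes on the array. RNA came from TEC100.4, an immortalized mouse cell line that the labels trace to cortical thymic epithelium, carrying an inducible mutant form of TFII-I, a transcription factor and the product of Gtf2i. The labels give the mutant as either the β or the δ isoform, so that there were 2 derived lines, and each line was cultured for 24 h with or without doxycycline, the drug that switches the transgene on. The 4 groups were the β line without doxycycline, the β line with it, the δ line without it and the δ line with it, with 2 arrays in each. All groups shared the parent line and the inducible construct. The titles place the untreated samples in the mutant line without doxycycline, while their genotype label names expression of the wild type protein. The groups follow the titles.

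Each isoform was represented by 1 derived line, so a difference between the lines compares these 2 lines and not the isoforms. Nothing in the labels names separate cultures behind the arrays of a group, and a p-value then reflects only how far these arrays spread, which may be technical. All 8 arrays lay on 1 slide, the β line in columns 1 and 2 and the δ line in columns 3 and 4, so column and line cannot be told apart. Row 1 held the treated samples and row 2 the untreated ones, which leaves row and treatment confounded; they cannot be told apart. By the scanner software's test, 39509 to 45080 probes an array exceeded background clearly (called well above background here), and none was saturated. The treated arrays had 43344 to 45080 such probes and the untreated ones 39509 to 40694, so detection differed with treatment or row. On the untreated δ array 1, 97 of 1008 blocks of neighbouring spots departed from the 8-array median by more than 0.3 log2 units, whereas no other array had more than 7, and the correlation across genes with its partner was 0.965, against up to 0.997 in the other groups. The 2 arrays of a group differed by more than 0.3 in 135 blocks for untreated δ and in 102 for treated β. For untreated β and treated δ the numbers were 10 and 6. Blocks that differed within any group held 23.9% of spots. With 2 arrays a group, precision is limited throughout.

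The labelled cell type was set against its markers. Of 12 cortical thymic epithelial markers, 7 were well above background on all 8 arrays, but Psmb11, the cortex-specific proteasome subunit, Cd83 and Enpep were so on none. Of 9 general epithelial markers, 7, the keratins Krt5, Krt8, Krt14, Krt18 and Krt19 and the claudins Cldn4 and Cldn7, were well above background on all 8 arrays. Cdh1 and Epcam, which encode epithelial adhesion molecules, were so on 3 arrays and 1 array. Of 10 fibroblast markers, 9 were well above background on every array. Of 9 thymocyte markers, Cd3e, Cd4, Cd8a, Lck and Tcf7 were well above background on all 8 arrays, Rag2 on 4, and Ptprc, Cd3g and Rag1 on none. Gtf2i itself differed by 0.11 with doxycycline in the β line and by 0.09 in the δ line on the log2 scale (adjusted p = 0.716 and 0.725, limma), and was 0.66 higher in the δ line (adjusted p = 0.00335). The source used here does not say whether its probe reads the transgene.

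Imprinted genes are expressed mainly from the copy inherited from one parent, a state set by DNA methylation in the germ line and kept through cell division. Many act on growth. Igf2, Peg3, Dlk1, Plagl1 and Mest are expressed from the paternal copy, and H19, Igf2r, Meg3, Cdkn1c and, in most tissues of the mouse, Grb10 from the maternal copy. An expression array reads the summed RNA of both copies, so neither the parental origin of the RNA nor DNA methylation was measured.

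Grb10 and Peg3 were the members that passed the test between the lines, and their annotated start regions are shown. Whether these windows lie in the regions whose methylation controls imprinting was not examined, and their CpG counts describe sequence only. In each sequence the capitals mark CpG dinucleotides, and each window runs from 250 bases before to 50 bases after a RefSeq transcript start. The RefSeq table matched 8 of the 10 genes with 15 windows in assembly GRCm38.p6. H19 and Cdkn1c were the genes without a window. The first 2 sequences are the upstream and the downstream Grb10 start, chr11:12037371-12037670 and chr11:12027922-12028221, both on the minus strand, and the third is the Peg3 start, chr7:6730370-6730669, minus strand.
Grb10 upstream start: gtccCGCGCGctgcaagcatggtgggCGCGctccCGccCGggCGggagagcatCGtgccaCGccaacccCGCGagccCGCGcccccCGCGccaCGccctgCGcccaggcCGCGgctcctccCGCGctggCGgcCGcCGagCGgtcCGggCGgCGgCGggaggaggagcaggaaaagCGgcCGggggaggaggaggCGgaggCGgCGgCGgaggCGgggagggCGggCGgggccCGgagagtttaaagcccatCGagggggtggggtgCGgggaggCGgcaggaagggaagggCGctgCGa
Grb10 downstream start: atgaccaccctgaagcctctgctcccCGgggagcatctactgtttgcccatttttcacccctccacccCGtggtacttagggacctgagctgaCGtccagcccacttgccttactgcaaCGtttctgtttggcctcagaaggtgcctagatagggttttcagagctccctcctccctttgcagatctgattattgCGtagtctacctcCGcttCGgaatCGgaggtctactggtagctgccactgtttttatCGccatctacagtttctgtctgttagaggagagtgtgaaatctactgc
Peg3 start: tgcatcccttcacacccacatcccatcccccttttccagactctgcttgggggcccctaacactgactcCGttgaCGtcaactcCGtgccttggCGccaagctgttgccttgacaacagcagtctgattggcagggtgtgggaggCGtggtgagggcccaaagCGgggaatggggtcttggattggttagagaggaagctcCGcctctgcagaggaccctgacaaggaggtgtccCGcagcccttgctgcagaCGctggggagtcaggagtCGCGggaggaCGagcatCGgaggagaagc
The upstream Grb10 window held 45 CpG dinucleotides, and 1.93% of the 32851 windows of the table held as many. The downstream window held 9, reached by 45.8% of windows, and the Peg3 window held 13, reached by 37.9%. The median window held 7. CACGTG, an E-box that reads the same on both strands, was searched because TFII-I is known to bind E-box elements. It occurred in the windows of Igf2r and Plagl1 and in 7.15% of all windows. The other 6 genes with a window did not have these letters in it.

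Values are log2 spot signals minus the array's 75th percentile, so that 0 is the level of the probe at that percentile, and each gene is represented by its brightest probe. Levels are not compared between genes, because probes differ in brightness. All 10 genes had a probe well above background on all 8 arrays. Of the 18 probes, 14 were well above background on all 8 arrays, and A_51_P516833 of Igf2 and A_55_P2033407 of Meg3 were so on none. A_65_P01584 of Meg3 was well above background on 7 arrays and A_55_P2090025 of Mest on 6. The lowest signal still called well above background lay between -5.99 and -5.65 on the treated arrays. On the untreated arrays it lay higher, between -5.37 and -5.19, which bears on doxycycline differences of dim probes.

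**Figure D1:**
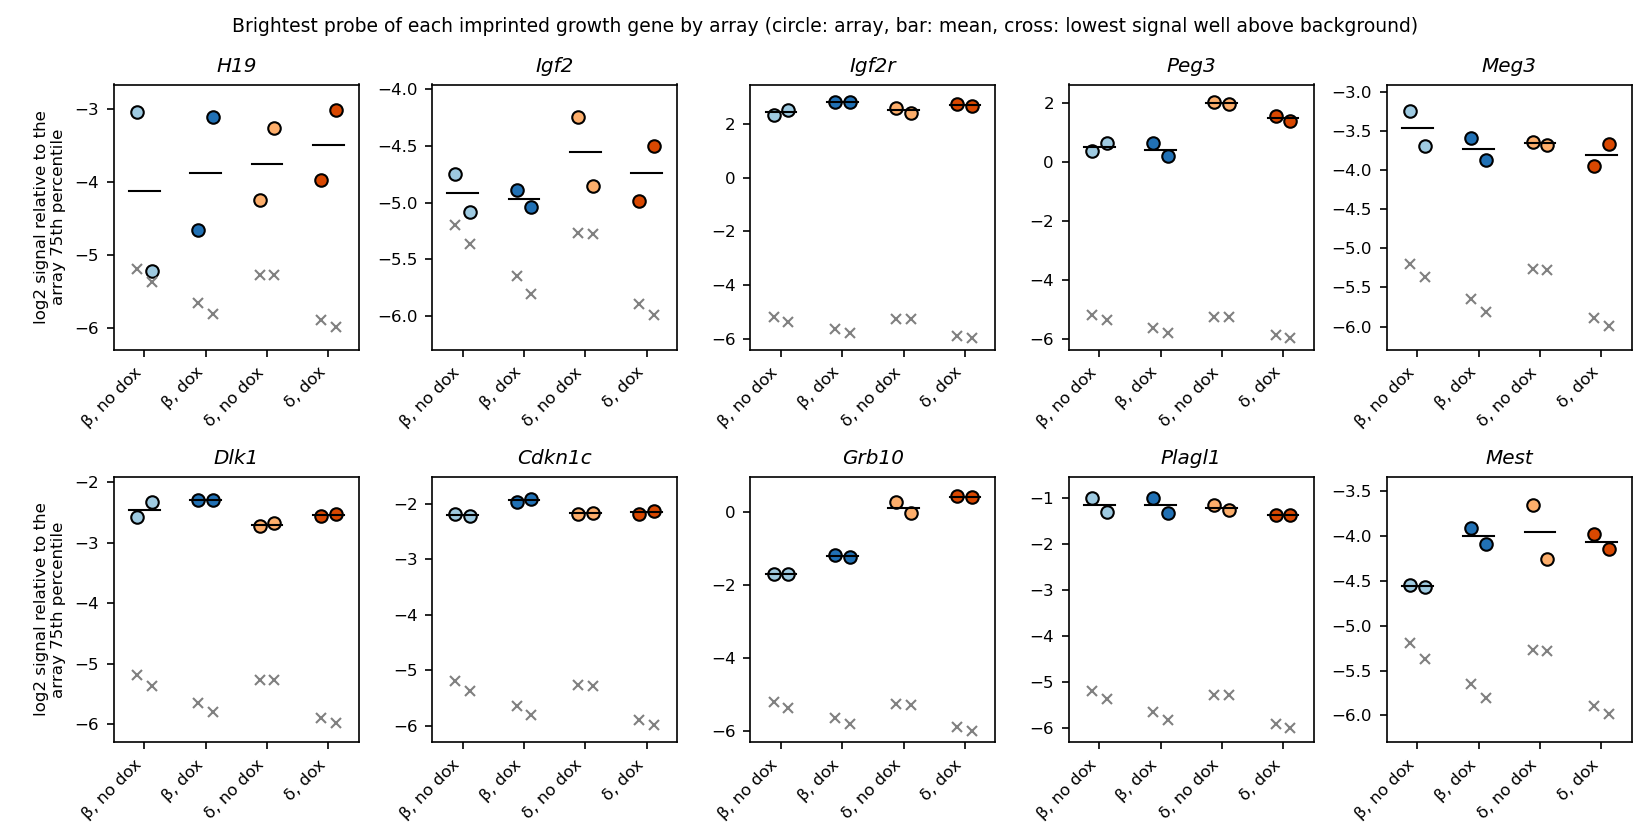
Normalized log2 signal of the brightest probe of each gene on the 8 arrays, by line and doxycycline (dox). Circles are arrays, black bars are group means, and grey crosses mark the lowest signal called well above background on that array. Grb10 and Peg3 were higher on all 4 δ arrays than on all 4 β arrays, and H19 spread widely within groups.

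The first comparison asked whether the 2 lines differ in the RNA of these genes. Over both treatments, Grb10 and Peg3 were higher in the δ line, and the other 8 genes did not pass the test. That is 2 of 10 genes at an adjusted p under 0.05, or 20%, while 24.6% of all genes tested passed, so the share among the members was near the background. Both were higher in the δ line, as were 15.2% of all genes. Grb10 and Peg3 were also the members whose 4 δ arrays did not overlap the 4 β arrays, while 26% of all genes did not overlap and 15.5% were higher without overlap. In the untreated cells alone 2 of 10 members passed, against 13.2% of all genes. With doxycycline 2 of 10 passed, against 15.3% of all genes, and these were again Grb10 and Peg3.

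Grb10 encodes an adaptor protein that binds the insulin and IGF1 receptors and restrains growth. Its brightest probe, A_55_P1955457, read -1.71 and -1.70 on the untreated β arrays, -1.18 and -1.23 on the treated β arrays, 0.25 and -0.04 on the untreated δ arrays and 0.43 and 0.39 on the treated δ arrays. Every δ array was above every β array, and within each line the treated arrays were above the untreated ones. The order of the group means was therefore untreated β, treated β, untreated δ and treated δ. The difference between the lines was 1.72 ± 0.08 on the log2 scale (SE, 95% interval 1.51 to 1.92), or 3.29-fold (adjusted p = 6.52e-05, limma). It was 1.81 without doxycycline (adjusted p = 0.00038) and 1.62 with it (adjusted p = 0.000666). At this size Grb10 ranked 197 by p among the 19023 genes. In the 18 alternative settings the difference stayed between 1.54 and 1.79 and past the threshold in each.

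The other Grb10 probe, A_52_P40363, was dimmer but well above background on every array. It read -3.38 and -3.97 on the untreated β arrays, -3.23 and -3.25 on the treated β arrays, -2.19 and -2.21 on the untreated δ arrays and -1.94 and -2.01 on the treated δ arrays. Again no δ array overlapped a β array. The δ line was 1.37 ± 0.14 higher by this probe (SE, 2.58-fold, adjusted p = 0.00184, limma across probes). The files do not say which of the Grb10 starts the transcripts of either probe came from.

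Peg3 encodes a zinc finger protein that acts in growth and maternal behaviour. Its only probe, A_52_P235861, read 0.35 and 0.62 on the untreated β arrays, 0.64 and 0.17 on the treated β arrays, 2.01 and 1.96 on the untreated δ arrays and 1.55 and 1.38 on the treated δ arrays. The 4 δ arrays were above the 4 β arrays, the β groups overlapped, and within the δ line the treated arrays were the lower ones. Over both treatments the δ line was 1.28 ± 0.13 higher (SE, 95% interval 0.97 to 1.59), or 2.43-fold (adjusted p = 0.00112, limma). The difference was 1.5 without doxycycline (adjusted p = 0.00401) and 1.06 with it (adjusted p = 0.0150). The difference with doxycycline rested on few arrays: its adjusted p was 0.0538 without the treated β array 2, 0.123 without the treated δ array 1 and 0.0760 without the treated δ array 2. The differences without doxycycline and over both treatments were past the threshold in every alternative setting run.

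Markers of other cell states moved between the lines beside Grb10 and Peg3. Of all genes tested, 24.6% passed between the lines over both treatments, 15.2% higher and 9.37% lower in the δ line. The summed level of the 9 general epithelial markers, in log2 units relative to the 75th percentile, lay between 5.76 and 6.11 on the β arrays and between 3.76 and 3.89 on the δ arrays. Of this list, Krt14 (-3.71), Krt19 (-2.50), Krt8 (-2.0) and Krt18 (-0.52) were lower in the δ line on the log2 scale, each past the threshold, with Cdh1 and Epcam near background in both lines. The summed level of the 10 fibroblast markers lay between 9.02 and 9.33 on the β arrays and between 9.05 and 9.11 on the δ arrays. Within that list 3 genes were higher and 3 lower in the δ line past the threshold, among them Pdgfrb, 2.47 higher, and Thy1, 2.99 lower on the log2 scale. The summed level of 5 endothelial markers lay between 0.59 and 1.29 on the β arrays and between 1.89 and 2.51 on the δ arrays. Of the 4 measured, Kdr was 1.70 higher in the δ line (adjusted p = 3.09e-05). Tek, which was not well above background on the untreated β arrays, was also higher over both treatments (adjusted p = 0.0305). It did not pass without doxycycline alone (adjusted p = 0.0739, limma). Pecam1 and Cdh5 differed by -0.24 and -0.85 (adjusted p = 0.242 and 0.507), and Emcn was well above background on no array. The summed level of 6 medullary epithelial markers lay between 1.5 and 1.69 on the β arrays and between 1.14 and 1.30 on the δ arrays. The ranges of the cortical list (5.97 to 6.25 and 5.91 to 6.21) and of 9 thymocyte markers (4.30 to 5.07 and 4.12 to 4.32) overlapped between the lines. In these bulk samples, a change in the make-up of the culture and a change in the RNA per cell cannot be told apart. The part of these markers in the Grb10 and Peg3 differences was not tested.

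**Figure D2:**
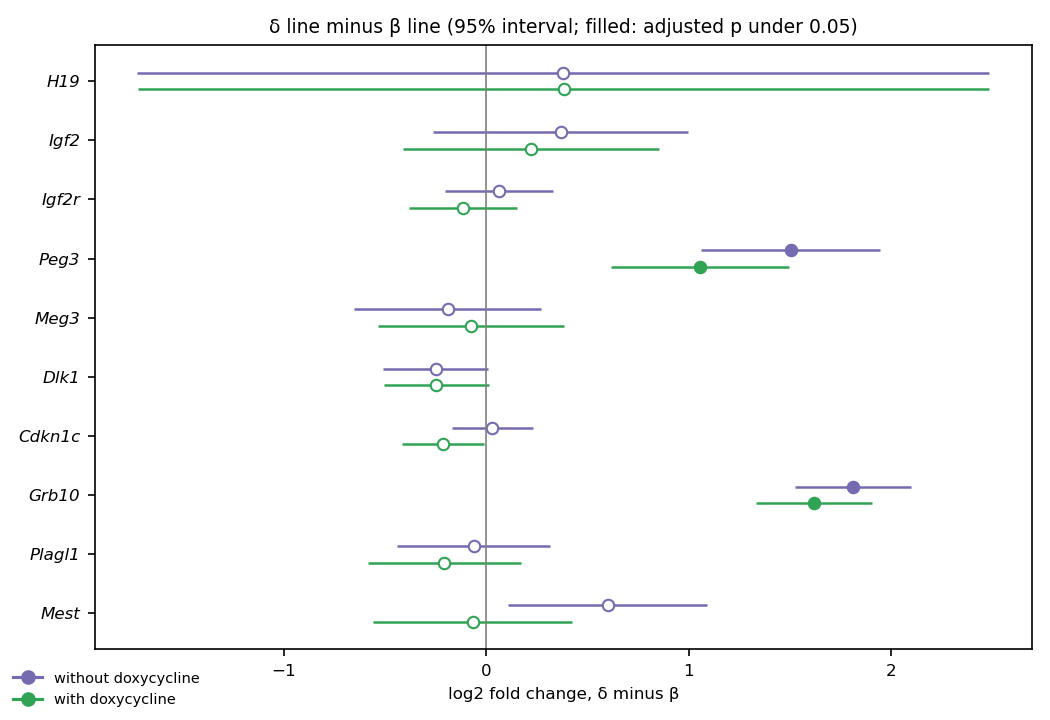
Log2 fold change of the δ line over the β line for each member, without and with doxycycline, with 95% intervals from limma over 2 arrays a group. Filled points passed an adjusted p of 0.05. Grb10 (1.81 and 1.62) and Peg3 (1.5 and 1.06) passed under both conditions, and the interval of H19 spanned more than that of any other member.

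The pair of reciprocal genes at the Igf2 locus read low. Igf2 encodes a fetal growth factor, and H19 is a noncoding RNA expressed from the opposite parental copy under a shared control region. The brighter Igf2 probe, A_55_P2118173, read -4.75 and -5.09 on the untreated β arrays, -4.89 and -5.04 on the treated β arrays, -4.25 and -4.86 on the untreated δ arrays and -4.99 and -4.50 on the treated δ arrays. These values were 0.28 to 1.49 above the lowest signal called well above background, the groups overlapped, and the highest value came from the array with the local defect. The spot lay in one of the blocks where arrays of a group differed. The lines differed by 0.29 ± 0.18 (SE, adjusted p = 0.295).

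H19 was the least repeatable member. Its probe, A_55_P2903297, read -3.04 and -5.22 on the untreated β arrays, -4.65 and -3.10 on the treated β arrays, -4.24 and -3.25 on the untreated δ arrays and -3.98 and -3.01 on the treated δ arrays. Arrays of the same group differed by 0.965 to 2.18 on the log2 scale, and all groups overlapped. The residual SD was 1.06, larger than that of 96.7% of 1820 genes of similar level, whose median was 0.21. The lines differed by 0.38 with a 95% interval from -1.11 to 1.87 (adjusted p = 0.690), so the interval held differences larger than that of Grb10 at its upper end. It also held differences of more than 1 log2 unit in the other direction.

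Igf2r, the receptor that clears IGF2 from the cell surface, was bright in every group. Its probe A_51_P125467 read 2.36 and 2.55 on the untreated β arrays, 2.82 and 2.84 on the treated β arrays, 2.60 and 2.44 on the untreated δ arrays and 2.76 and 2.67 on the treated δ arrays. The lines overlapped, and in both lines the treated arrays were above the untreated ones. The difference between the lines was -0.03 (95% interval -0.21 to 0.16, adjusted p = 0.846, limma). This interval reflects only the spread of these arrays. It held no difference of the size of Peg3 in either direction.

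Dlk1 and Meg3 are the reciprocal pair of another imprinted domain: Dlk1 encodes a transmembrane relative of Notch ligands, and Meg3 is a noncoding RNA. The brighter Dlk1 probe, A_66_P117477, read -2.58 and -2.33 on the untreated β arrays, -2.30 and -2.30 on the treated β arrays, -2.73 and -2.68 on the untreated δ arrays and -2.56 and -2.53 on the treated δ arrays. The δ arrays were lower within each treatment, but the untreated β array 1 lay below the treated δ arrays. The difference of -0.25 ± 0.08 (SE) missed the threshold (adjusted p = 0.0606). It passed in 4 of 18 alternative settings, without the untreated β array 1 (adjusted p = 0.0245), under the stricter filter on dim probes (0.0485), and without the blocks of spots that differed within a group (0.0387) or from the 8-array median (0.0484). The dimmer Dlk1 probe, A_52_P177324, gave -0.33 (adjusted p = 0.255 across probes).

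The brightest Meg3 probe, A_55_P2736010, read -3.24 and -3.69 on the untreated β arrays, -3.59 and -3.88 on the treated β arrays, -3.64 and -3.68 on the untreated δ arrays and -3.95 and -3.67 on the treated δ arrays. The groups overlapped, and the lines differed by -0.13 ± 0.13 (SE, adjusted p = 0.512). Among the dimmer Meg3 probes, A_51_P455997 gave -0.17 and A_65_P01584 gave 0.78 (adjusted p = 0.253 and 0.133 across probes). The value of A_65_P01584 rested on the untreated δ array 1, which read -3.20 against -4.49 on its partner. That spot also lay in a block where arrays of a group differed.

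Cdkn1c, an inhibitor of cyclin-dependent kinases, was the most repeatable member. Its probe A_55_P2733752 read -2.19 and -2.21 on the untreated β arrays, -1.96 and -1.91 on the treated β arrays, -2.18 and -2.16 on the untreated δ arrays and -2.18 and -2.12 on the treated δ arrays. The treated β arrays were the highest, and the other groups lay within 0.1 of each other. Its residual SD was 0.030, larger than that of 0.173% of 1730 genes of similar level. The lines differed by -0.09 (95% interval -0.23 to 0.05, adjusted p = 0.314).

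Plagl1, a zinc finger transcription factor, gave different calls by its probes. The brighter, A_55_P1961965, read -1.0 and -1.30 on the untreated β arrays, -0.99 and -1.34 on the treated β arrays, -1.15 and -1.28 on the untreated δ arrays and -1.37 and -1.38 on the treated δ arrays. The lines overlapped, and the difference was -0.13 ± 0.11 (SE, adjusted p = 0.421). The dimmer probe, A_55_P1961968, read -4.28 and -4.55 on the untreated β arrays, -4.11 and -4.31 on the treated β arrays, -4.89 and -4.78 on the untreated δ arrays and -4.72 and -4.73 on the treated δ arrays. Every δ array was below every β array by this probe, with a difference of -0.47 ± 0.10 (SE, adjusted p = 0.0239 across probes). That call was lost in 6 of 17 alternatives: with normexp background correction (-0.25, adjusted p = 0.158), with an intensity trend (0.0577), and without the treated β array 1 (0.0773), the treated δ array 1 (0.110), the treated δ array 2 (0.102) or the untreated δ array 1 (0.0547). Across probes, 4 of the 16 member probes kept passed, against 15.7% of all probes: both of Grb10, that of Peg3 and this one.

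Mest, which encodes an α/β hydrolase-like enzyme, was near the lower end of the measured range. The brighter probe, A_55_P2151868, read -4.54 and -4.57 on the untreated β arrays, -3.91 and -4.09 on the treated β arrays, -3.66 and -4.26 on the untreated δ arrays and -3.98 and -4.14 on the treated δ arrays. The untreated β arrays were the lowest, and the other 3 groups overlapped. The lines differed by 0.27 ± 0.14 (SE, adjusted p = 0.230), and by 0.60 without doxycycline (adjusted p = 0.114). Without the untreated δ array 2, so that the array with the local defect stood alone for its group, these became 0.42 (adjusted p = 0.0188) and 0.90 (adjusted p = 0.00771). Without that array, the untreated δ array 1, they were 0.12 (adjusted p = 0.395) and 0.30 (adjusted p = 0.279). The dimmer probe, A_55_P2090025, gave -0.32 (adjusted p = 0.589 across probes). Its sign rested on the untreated δ array 1, which read -6.44, below the lowest signal called well above background there (-5.27), against -4.75 on its partner. Without that array the probe gave 0.10 (adjusted p = 0.687), and without its partner -0.74 (adjusted p = 0.0215).

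The second comparison set doxycycline against none for these genes within each line. All groups carried the inducible construct, so effects of the drug and of the induced protein cannot be told apart. The mutant protein itself was not measured. No member passed the test in either line or for the difference between the lines. In the β line 0 of 10 passed, where 0.247% of all genes did, and 4 of 10 had an unadjusted p under 0.05, as did 18.2% of all genes. In the δ line 0 of 10 passed, where 0.0736% of all genes did, and 2 of 10 had an unadjusted p under 0.05, as did 15% of all genes. For the difference of the doxycycline effects 0 of 10 passed and 0 had an unadjusted p under 0.05, where 0.00526% of all genes passed and 7.53% had such an unadjusted p. With so few calls among all genes, a count of 0 among 10 is near the background.

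Within the β line, 5 members had treated arrays that did not overlap the untreated ones, all higher, against 26.6% of all genes that were higher without overlap. These were Mest (0.56, adjusted p = 0.223), Grb10 (0.50, 0.111), Igf2r (0.37, 0.164), Cdkn1c (0.26, 0.183) and Dlk1 (0.16, 0.504), as log2 differences with limma's adjusted p. Within the δ line 5 members did not overlap. Without overlap, 30.4% of all genes were higher and 27.6% lower. Of the members Grb10 (0.31), Igf2r (0.20) and Dlk1 (0.16) were higher with doxycycline, and Peg3 (-0.52) and Plagl1 (-0.16) lower, at adjusted p between 0.298 and 0.622. In both lines the 95% interval of Grb10 lay above 0, from 0.22 to 0.79 in the β line and from 0.02 to 0.60 in the δ line, before any adjustment over genes. The lines' values differed by -0.19 for Grb10 (adjusted p = 0.706), -0.45 for Peg3 (0.666) and -0.67 for Mest (0.649). The Mest difference passed only without the untreated δ array 2, at -0.97 (adjusted p = 0.0363), and was -0.37 (0.821) without the untreated δ array 1.

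**Figure D3:**
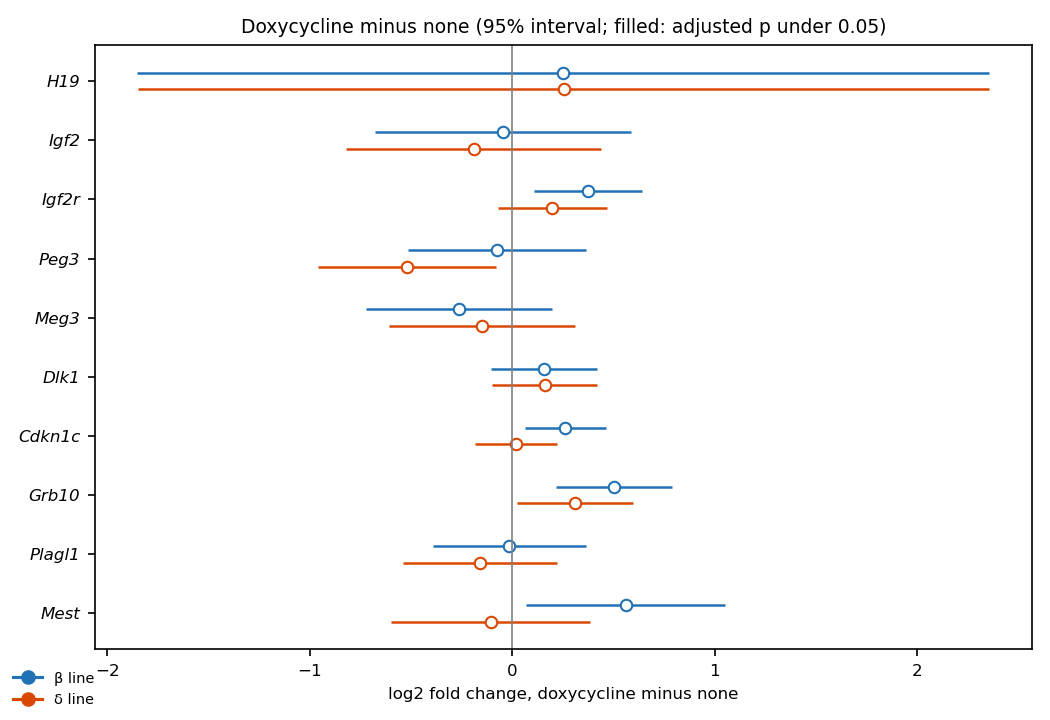
Log2 fold change with doxycycline against none for each member in the β and the δ line, with 95% intervals from limma over 2 arrays a group. No point is filled, because no member passed an adjusted p of 0.05. The values ran from -0.52 for Peg3 in the δ line to 0.56 for Mest in the β line.

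Genes next to the members were examined by imprinted domain. In the Grb10 neighbourhood, 1 of 4 measured genes passed between the lines, where 24.6% of all genes did. Fignl1, an AAA-type ATPase, was 0.42 lower in the δ line on the log2 scale (adjusted p = 0.0111). That call was lost with median centring or without the treated δ array 2. The imprinted neighbours Ddc, the aromatic amino acid decarboxylase, and Cobl, an actin nucleator, differed by 0.17 and -0.10 (adjusted p = 0.172 and 0.506). In the Peg3 domain, 1 of 5 measured genes passed: Peg3os, an antisense RNA of the locus, was 0.44 higher (adjusted p = 0.0239). The Peg3os call was lost with normexp background correction, where the difference was 0.15, and without the treated β array 1, either treated δ array or the untreated β array 2. The imprinted genes Usp29, a ubiquitin protease, and Zim3, a zinc finger gene, differed by -0.18 and 0.09, with Zim2 at -0.14 and Clcn4 at -0.16 (adjusted p between 0.269 and 0.703).

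**Figure D4:**
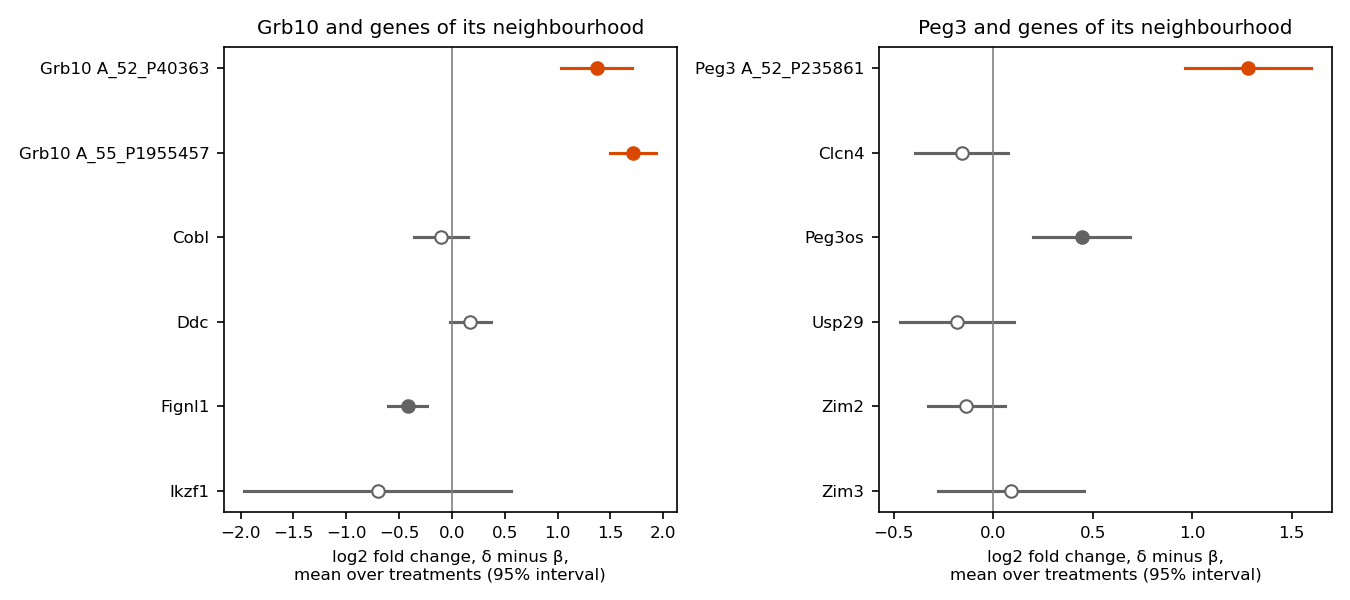
Log2 fold change of the δ line over the β line, averaged over treatments, with 95% intervals, for each probe of Grb10 and Peg3 and for the measured genes around them. Filled points passed an adjusted p of 0.05, and the horizontal scales differ between panels. The member probes lie between 1.28 and 1.72, and the neighbours between -0.70 and 0.44. The lowest neighbour, Ikzf1, did not pass and was well above background on 1 of the 2 untreated δ arrays.

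Over all 8 neighbourhoods, 61 of 69 listed genes were measured, and 16 passed between the lines, 6 higher and 10 lower in the δ line, or 26.2% of those measured, near the 24.6% of all genes that passed. The median difference was -0.11, against -0.01 over all genes. Around Cdkn1c, 5 of 15 genes passed and all were lower in the δ line, where 9.37% of all genes passed as lower. They included Tnfrsf23 (-2.75) and Tnfrsf22 (-1.49), decoy receptors for TRAIL, with adjusted p of 0.000183 and 0.00109. The Tnfrsf23 difference was -0.88 when blocks of spots off the 8-array median were left out and another probe stood for the gene. Phlda2, a maternally expressed gene that restrains placental growth, was well above background on 3 of the 4 β arrays and on no δ array. With doxycycline it was at least 2.81-fold lower in the δ line, a bound against the lowest signal called well above background. Without doxycycline that bound was 1.14-fold, with 1 of the 2 untreated β arrays well above background. The test behind the call of Phlda2 used δ signals that were not well above background. Cdkn1c lies in the same domain and differed by -0.09, with Kcnq1ot1, the domain's noncoding RNA, at -0.18 (adjusted p = 0.388).

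Around Plagl1, 4 of 6 genes passed, all lower in the δ line, where 9.37% of all genes passed as lower. No set test was run on these few genes. The 3 of smallest p were Fuca2, a fucosidase (-1.31, adjusted p = 0.000315), Ltv1, a ribosome assembly factor (-0.80, 0.00276), and Adat2, a tRNA deaminase (-0.46, 0.0139). The Adat2 call was lost with normexp background correction, without the blocks of spots that differed within a group, and without the treated β array 1 or either treated δ array. Around Igf2r, 2 of 6 passed as higher, where 15.2% of all genes did. Slc22a2, an organic cation transporter imprinted in placenta, was 1.19 higher (adjusted p = 0.000428) and Map3k4, a kinase, 0.30 higher (0.0214). The Map3k4 call was lost without the treated β array 1, either treated δ array or the untreated δ array 1. Airn, the noncoding RNA that lies antisense to Igf2r, differed by 0.03 (adjusted p = 0.890).

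Of all genes, 24.6% passed between the lines, which stands beside each of the next counts. Around H19 and Igf2, 1 of 10 genes passed: Lsp1, an actin-binding protein of leukocytes, was 1.05 higher in the δ line (adjusted p = 0.000494). Around Meg3 and Dlk1, 1 of 8 passed: Mirg, a noncoding RNA of that domain, was 0.67 higher (adjusted p = 0.0113), while Rian, another, was well above background on 4 arrays, none of them an untreated δ array, and no fold is given for it. Around Mest, 1 of 7 passed: Copg2, a coat protein gene, was 0.27 higher (adjusted p = 0.0226). The Copg2 call was lost with the mean over probes and without the treated β array 1, either treated δ array or the untreated δ array 1. For doxycycline 0 of the 61 passed in either line by limma, with 10 at an unadjusted p under 0.05 in the β line and 11 in the δ line, where 18.2% and 15% of all genes had such a p.

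Imprinted genes outside the members were counted from a list of 53. Of the 44 measured, 10 passed between the lines, or 22.7%, near the 24.6% of all genes, with 6 higher and 4 lower in the δ line and a median difference of -0.01. Besides Slc22a2, Inpp5f, an inositol phosphatase (0.60, adjusted p = 0.00265), and Zrsr1, a splicing factor relative (0.46, 0.00326), had the smallest p among the higher genes. Sgce, ε-sarcoglycan, was 0.39 lower (adjusted p = 0.0122), a call that was lost with median centring or without the treated δ array 2. The lower genes include Phlda2, which was well above background on no δ array. With doxycycline 0 of 44 passed in either line by limma, with 8 at an unadjusted p under 0.05 in each (all genes 18.2% in the β line and 15% in the δ line).

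Members of the IGF axis, on which Igf2, Igf2r and Grb10 act, were counted from a list of 26. Of 23 measured, 12 passed between the lines, 11 higher and 1 lower in the δ line, or 52.2%, beside 24.6% of all genes. The median difference was 0.34, against -0.01 over all genes. Igf2bp3, an RNA-binding protein named for its binding to Igf2 transcripts, read -2.50 and -2.47 on the untreated β arrays, -2.72 and -2.80 on the treated β arrays, 1.15 and 1.11 on the untreated δ arrays and 1.18 and 1.18 on the treated δ arrays. The lines did not overlap, and the δ line was 3.78 ± 0.06 higher (SE, 13.8-fold, adjusted p = 1.34e-06).

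Igfbp3, a binding protein that carries IGFs outside the cell, read 1.61 and 1.73 on the untreated β arrays, 1.78 and 1.97 on the treated β arrays, 3.78 and 4.69 on the untreated δ arrays and 4.70 and 4.63 on the treated δ arrays. The lowest δ value, from the array with the local defect, was still above every β array, and the difference was 2.67 ± 0.20 (SE, 6.38-fold, adjusted p = 0.000339). Irs1, a docking protein of the insulin and IGF1 receptors, was 1.06 ± 0.07 higher (SE, adjusted p = 0.000229). The other 8 higher genes of the list rose by 0.32 to 1.64.

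Igf1, the growth factor itself, went the other way. It read -3.14 and -2.81 on the untreated β arrays and -3.14 and -2.79 on the treated β arrays, and it was not well above background on any δ array. Against the lowest signal called well above background, Igf1 was at least 4.79-fold lower in the δ line without doxycycline and at least 7.87-fold lower with it. The test behind its call, the 1 lower call of the list, used δ signals that were not well above background. Igf1r and Insr, the receptors that Grb10 binds, differed by 0.26 and 0.28 (adjusted p = 0.279 and 0.104). For doxycycline 0 of 23 passed in either line by limma, with 7 at an unadjusted p under 0.05 in the β line and 3 in the δ line, beside the same 18.2% and 15% of all genes. The keratin and Pdgfrb differences given above stand beside these values too, and their part was not tested.

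Factors that act on DNA methylation or chromatin, among them DNA methyltransferases, TET enzymes and histone methyltransferases, were counted from a list of 33. The list is titled imprint maintenance in the figure, but its genes act in different directions. A count of higher or lower genes therefore does not measure how well imprints are kept. Of 32 measured, 10 passed between the lines, 8 higher and 2 lower in the δ line, or 31.2%, beside 24.6% of all genes, with a median difference of 0.03. The count was 6 without the treated β array 1, 4 without the treated δ array 1 and 5 without the treated δ array 2. Tet2, which oxidises methylated cytosine, was 0.70 higher (adjusted p = 0.00138), and Ehmt1, a histone H3 methyltransferase, 0.49 higher (0.00401). Dnmt3b, a de novo DNA methyltransferase, was 0.56 higher by its brightest probe (adjusted p = 0.00397) and -0.09 by the mean of its probes. Its call was also lost without the blocks of spots off the 8-array median. Dnmt3a, also a de novo DNA methyltransferase, was higher in the δ line by 0.67 to 0.90 over 18 alternatives. The value nearest 0 came from the mean of its probes.

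Uhrf1, which brings the maintenance methyltransferase to newly copied DNA, was 0.34 lower (adjusted p = 0.0249). The Uhrf1 call was lost in 6 of 18 alternatives: median centring, normexp background correction, and without the treated β array 1, either treated δ array or the untreated β array 2. Eed, a Polycomb subunit, was 0.25 lower (adjusted p = 0.0310), and its call was lost in 9 of 18 alternatives: median centring, normexp, and without any single array other than the untreated δ array 1. Dnmt1, the maintenance methyltransferase, differed by -0.21 (adjusted p = 0.0862). Zfp57, which protects methylated imprints, differed by -0.04 (adjusted p = 0.852). For doxycycline 0 of 32 passed in either line by limma, with 7 at an unadjusted p under 0.05 in the β line and 6 in the δ line, again beside 18.2% and 15% of all genes.

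**Figure D5:**
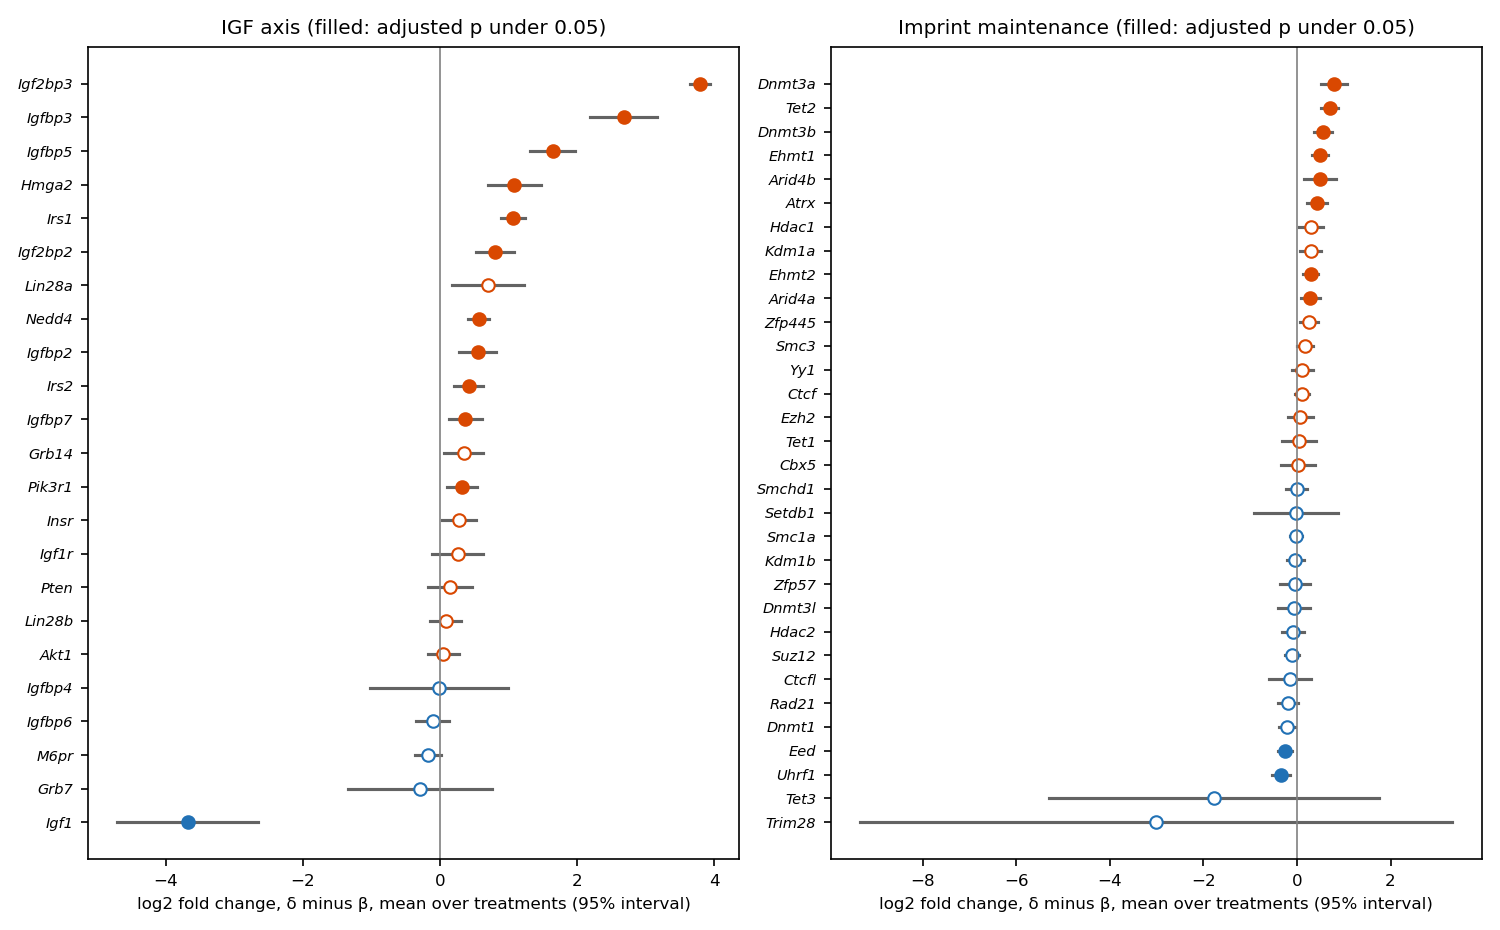
Log2 fold change of the δ line over the β line, averaged over treatments, with 95% intervals, for the 23 measured genes of the IGF axis and the 32 of the list titled imprint maintenance. Filled points passed an adjusted p of 0.05 and colour gives the sign. In the IGF axis 11 genes were higher and Igf1 was lower, and in imprint maintenance 8 were higher and 2 lower, with horizontal scales that differ.

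Relatives of Dlk1 and Cdkn1c and the cyclins and kinases around them were counted from a list of 12, all measured. Of these, 7 passed between the lines, 1 higher and 6 lower in the δ line, or 58.3%, beside 24.6% of all genes. Without doxycycline 0 of 12 passed by limma, where 13.2% of all genes did, and 7 had an unadjusted p under 0.05, as did 27.8% of all genes. With doxycycline 3 of 12 passed, where 15.3% of all genes did. Cdkn1b, a sister inhibitor of Cdkn1c, was 0.48 higher (adjusted p = 0.0157), while Cdkn1a, the third of that family, was 0.36 lower (0.0184). The Cdkn1b call was lost without the treated β array 2 or either treated δ array. The Cdkn1a call was lost with median centring, normexp, the mean over probes, and without either treated δ array. Dlk2, the closest relative of Dlk1, was 0.57 lower (adjusted p = 0.00506), and Ccnd2, a D-type cyclin, 0.70 lower (0.00945). For doxycycline 0 of 12 passed in either line by limma, with 2 at an unadjusted p under 0.05 in each, beside 18.2% and 15% of all genes.

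The genes whose levels ran most like Grb10 over the 8 arrays, among 15200 genes well above background on all of them, were Nid2, Ak5 and P2rx5, each with Pearson r = 0.997. For Peg3 they were Antxr1 (r = 0.994), Bace1 (0.992) and Cpz (0.991). Grb10 and Peg3 themselves had r = 0.873. These coefficients describe 8 arrays that share the 2 lines and 1 slide.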

How the data were processed

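Total RNA (200 ng, Cy3) of 8 samples was hybridised to one-colour Agilent SurePrint G3 mouse arrays, per the labels. The authors quantified the images with Agilent Feature Extraction, and the deposited spot intensity values are linear, with background removed and detrending applied but no normalization between arrays. Its version is 11.5.11 per the submitters' processing notes and 11.5.1.1 per the file headers. The recorded multiplicative detrending was 0 on the treated β array 2 and both treated δ arrays, and 0.067 to 0.126 on the others. The sources used here name no test of the study's own.

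From these values, log2 of the processed signal was averaged over unflagged spots of a probe and set relative to the 75th percentile of its array. An array without an unflagged spot removed 98 of 56605 probes. Names came from RefSeq accessions (GRCm38.p6), which named 32931 probes; 23576 were not named. The positions printed are those of the RefSeq start windows, in that assembly; no probe position is printed, because the headers name another build. Kept probes were well above background in both replicates of 1 or more groups, and the brightest stood for each gene. A mean for each group was fitted to all arrays with lmFit and eBayes of limma 3.58.1 in R 4.3.3 (4 residual degrees of freedom), with Benjamini-Hochberg adjustment over all genes or, where stated, all probes, at 0.05. The script was tested on simulated data.

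The members and gene lists were chosen with earlier results of these data known. All members were named with every probe. From each other list, up to 3 genes per direction of smallest p were named among those past the threshold, with the imprinted neighbours of members that passed. Psmb11 and other markers, Igf1r, Insr, Dnmt1, Dnmt3a, Zfp57, Airn, Rian, Kcnq1ot1, Zim2, Clcn4 and Ikzf1 were added after their values were seen. Alternatives were other scalings, filters, probe rules, blocks of spots left out, each array left out, and normexp, which ran on the median spot signal because the files used here hold no mean signal. The labels give no replicate numbers that pair samples.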

Additional observations from a re-analysis of the deposited data

How the results depend on the processing

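Grb10 and Peg3 passed between the lines over both treatments in all 18 alternatives run and without doxycycline in all 19, and Grb10 with doxycycline in all 19. The fits that left out 1 array assumed a lone array to vary like the other groups. Over these fits the members past the threshold changed in every line contrast. With doxycycline, Peg3 dropped out in some of them. Over both treatments Dlk1 or Mest came in. Mest also came in without doxycycline and for the difference of the doxycycline effects. The number of member probes past the threshold ran from 3 to 7 against 4. No replicate numbers pair the arrays. The slide column was also used as a replicate block, as a fixed effect for doxycycline and a random one between the lines. The block left 2 members past the threshold between the lines and 0 for doxycycline, as without it. Columns are nested in lines, so it cannot separate a column effect from a line difference. The genes called for doxycycline went from 47 to 0 in the β line and from 14 to 1 in the δ line. The fixed block leaves fewer residual degrees of freedom. Correlations of same-column deviations were 0.019 in the β line and 0.076 in the δ line.

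Signs turned among member differences that did not pass as reported; of these, the Mest line difference passed without the untreated δ array 2 (0.42, adjusted p = 0.0188). With the mean over probes the line difference of Meg3 was 0.16 and of Mest -0.027, the doxycycline difference in the β line of Meg3 was 0.087 and of Plagl1 0.096, and that in the δ line of Dlk1 was -0.023 and of Mest 0.24. With normexp, H19 in the δ line was -0.0026, and in the β line Igf2 was 0.15 and Plagl1 0.034. With median centring the line difference of Igf2r was 0.027. Over the fits without 1 array, the line difference ran from -0.16 to 0.93 for H19 and from -0.071 to 0.021 for Igf2r. The doxycycline difference in the β line ran from -0.84 to 1.34 for H19, from -0.21 to 0.12 for Igf2, from -0.31 to 0.16 for Peg3 and from -0.18 to 0.16 for Plagl1. In the δ line it ran from -0.010 to 0.051 for Cdkn1c, from -0.24 to 0.75 for H19, from -0.50 to 0.11 for Igf2 and from -0.41 to 0.19 for Mest. The cause was not tested.

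The number of all genes past the threshold for doxycycline ranged from 0 to 376 in the β line (47) and from 1 to 1684 in the δ line (14), the highest without the untreated δ array 2. Between the lines it ranged from 2382 to 5624 (4684) over both treatments, from 918 to 3812 without doxycycline and from 671 to 4130 with it. Of the 47 genes, 46.8% were higher, against 28.6% of 14 with median centring and 28.3% of 53 with quantile normalization. The fit of only the arrays compared gave no value for the mean line difference or the difference of effects. Leaving out the blocks off the 8-array median was added after seeing the data. Signal over background limits Igf2, Mest and the dimmer Meg3 probes.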
